A study of Mus musculus with 75 samples.

Results

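The transcripts described here are 48 genes of the cell cycle and of proliferation, found by symbol among the 32245 genes of a count table from mouse kidney. All 48 symbols were present in the table. They comprise 4 G1 cyclins, 15 genes of DNA replication (S phase), 26 genes of mitosis and 3 other genes (Hmgb2, Lmnb1 and Stmn1), and the S phase and mitosis genes are reported separately. RNA from whole kidneys of adult mice was sequenced 3 days after unilateral ureteral obstruction (UUO), which dams urine in the kidney and injures its tubules, and the unobstructed contralateral (CL) kidney served as control. The study asked whether activating the endothelial receptor TIE2, or removing the growth factor PDGFB, alters the response to this injury.

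The 75 libraries fall into 12 groups, a CL and a UUO group for each of 6 kinds of mice in 3 arms. In the ABTAA arm, C57BL6/J mice or WT mice from the study's breeding received ABTAA, an antibody that binds angiopoietin-2 and thereby activates TIE2 (7 CL and 7 UUO kidneys), or human IgG Fc (8 and 8). In the Veptp arm, Veptp iECKO mice (6 and 8) lacked the phosphatase VEPTP, which dephosphorylates TIE2, in endothelial cells through tamoxifen-induced Cdh5-CreERT2. Their controls, Veptp WT (7 and 8), were noninduced Veptp wt/lox mice that carried the same Cre, so tamoxifen and the deletion cannot be told apart in this arm. In the Pdgfb arm, Pdgfb iKO mice (4 and 4) lost Pdgfb throughout the body through tamoxifen-induced Actb-CreERT2, and Pdgfb WT mice (4 and 4) were littermates without Cre and with 1 or 2 floxed alleles. Of the 4 kidneys in the Pdgfb WT CL group, 2 come from sham-operated mice, and the labels do not say which. Changes with UUO in Pdgfb WT mice thus rest in part on sham kidneys. All operated mice received the analgesic carprofen, and the genetically modified mice had a mixed background.

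Cells that leave quiescence pass through G1, where D and E cyclins switch on cyclin-dependent kinases. These kinases release E2F transcription factors, which drive the genes of DNA replication. Later in the cycle the MuvB complex with B-MYB and FOXM1 drives the genes of mitosis. Most cells of the adult kidney are quiescent, and after injury surviving tubule cells, interstitial cells and infiltrating macrophages can all enter the cycle. In whole-kidney RNA more cycling cells and more transcript per cycling cell cannot be told apart, and the cycling cell type is not identified.

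The libraries were shallow for these genes. Total counts ranged from 172827 to 2341800 (median 757897), of which the 48 genes took 0.0467 to 0.227%, so that a library held 30 to 1866 counts for all mitosis genes together. The proximal tubule gene Lrp2 was between 487 and 2957 CPM in every library (CPM, a count divided by the TMM-scaled library total and set to a common scale), as in kidney tissue, and the lymphocyte markers Cd3e and Ms4a1 were at 0 in most. Ptprb, which encodes VEPTP, overlapped between genotypes, at 25.1 to 42.1 CPM in Veptp iECKO CL and 28.1 to 74.4 in Veptp WT CL kidneys, and at 12.1 to 62.7 and 24.9 to 87.4 in UUO kidneys. Pdgfb was lower in UUO kidneys labelled Pdgfb iKO (33.2 to 40.9 CPM) than Pdgfb WT (43.7 to 57.6), but in CL kidneys the libraries labelled Pdgfb iKO had a higher median (17.1, range 16.8 to 25.0) than Pdgfb WT (8.61, range 4.51 to 20.0), which goes against the label. Whether these counts cover the deleted exons is not known. In the ABTAA and Veptp arms library names came in 2 forms, 30 with a separator between a letter and a number (separated names) and 45 plain ones, which include all of the Pdgfb arm, and results are given for each form. In 24 libraries, 22 of them plain, both Xist and Y-linked genes reached 10 counts, although a kidney comes from a single sex. Ccnb1, Ccnb2, Stmn1, Tyms and Pcna have near-identical copies elsewhere in the genome, so their counts are less certain. In the Veptp arm, libraries with the numbers 3, 4, 7 and 8 carry opposite genotypes in their CL and UUO kidneys.

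Promoters are shown first, because the S phase and mitosis genes differed in the motifs they hold. RefSeq promoters of GRCm38.p6, each 300 bases long (250 before the start and 50 after it), were found for 37 of the 48 genes. Both strands were searched for E2F motifs (TTTCCCGC, TTTGGCGC or TTTCGCGC), for the cell cycle genes homology region, the MuvB site (CHR, TTTGAA or TTTAAA), and for the CCAAT box bound by NF-Y. An E2F motif was in 7 of 15 S phase promoters (46.7%), in 1 of 23 mitosis promoters (4.35%) and in 1.84% of all 32851 promoters. A CHR motif was in 20 of 23 mitosis promoters (87%), in 5 of 15 S phase promoters (33.3%) and in 27.6% of all. CCAAT was in 20 mitosis (87%) and 11 S phase promoters (73.3%), against 37.4% of all. These are matches of letters and no proof of binding. For each class, the 3 genes with the most counts that hold its motif are printed, as the 200 bases before the start, 5′ to 3′ on the gene's strand. In the S phase genes, all MCM helicase subunits, capitals mark E2F matches, and where matches on opposite strands overlap they form 1 run. Mcm6 lies on the minus strand at chr1:128359706-128359905, Mcm7 on the minus strand at chr5:138171884-138172083 and Mcm5 on the plus strand at chr8:75109309-75109508.
Mcm6: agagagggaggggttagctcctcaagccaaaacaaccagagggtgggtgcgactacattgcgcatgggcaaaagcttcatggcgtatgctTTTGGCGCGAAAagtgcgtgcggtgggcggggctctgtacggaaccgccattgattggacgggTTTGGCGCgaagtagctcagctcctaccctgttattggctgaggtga
Mcm7: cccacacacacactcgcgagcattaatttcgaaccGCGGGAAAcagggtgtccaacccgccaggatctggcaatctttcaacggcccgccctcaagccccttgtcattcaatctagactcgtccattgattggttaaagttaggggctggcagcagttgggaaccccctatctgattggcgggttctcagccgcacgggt
Mcm5: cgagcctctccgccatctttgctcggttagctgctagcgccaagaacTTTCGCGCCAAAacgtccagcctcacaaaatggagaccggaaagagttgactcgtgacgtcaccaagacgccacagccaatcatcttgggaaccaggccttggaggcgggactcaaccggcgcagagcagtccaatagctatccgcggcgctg

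In the mitosis genes capitals mark CHR and CCAAT matches on either strand (ATTGG is CCAAT, and TTCAAA is TTTGAA, read from the other strand). Mki67 lies on the minus strand at chr7:135716380-135716579, Top2a on the minus strand at chr11:99024190-99024389 and Cdk1 on the minus strand at chr10:69352913-69353112.
Mki67: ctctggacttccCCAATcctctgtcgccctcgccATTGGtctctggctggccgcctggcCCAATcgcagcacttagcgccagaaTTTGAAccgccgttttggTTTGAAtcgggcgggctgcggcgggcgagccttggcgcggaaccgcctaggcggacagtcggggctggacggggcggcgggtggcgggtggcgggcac
Top2a: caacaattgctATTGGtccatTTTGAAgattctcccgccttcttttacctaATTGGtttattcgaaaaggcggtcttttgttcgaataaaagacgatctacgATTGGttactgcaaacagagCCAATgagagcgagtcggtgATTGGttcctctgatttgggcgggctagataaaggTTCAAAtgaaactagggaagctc
Cdk1: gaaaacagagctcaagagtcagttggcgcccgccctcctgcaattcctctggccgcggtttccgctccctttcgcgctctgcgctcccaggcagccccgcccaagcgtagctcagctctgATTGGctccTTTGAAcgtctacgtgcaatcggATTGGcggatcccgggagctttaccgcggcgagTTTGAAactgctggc

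Both classes of transcripts were more abundant in UUO than in CL kidneys, with larger ratios for mitosis than for S phase. In IgG-treated mice the summed level of the 26 mitosis genes was 229 ± 115 CPM in CL kidneys (mean ± SD, n = 8) and 721 ± 115 in UUO kidneys (n = 8), a 3.15-fold ratio of means. The S phase sum was 323 ± 70.5 CPM in CL and 603 ± 61.3 in UUO kidneys, a 1.87-fold ratio. The CL and UUO libraries did not overlap in either sum. The mitosis ratio was 3.02-fold in ABTAA-treated mice, 4.34-fold in Veptp WT, 2.74-fold in Veptp iECKO, 2.87-fold in Pdgfb WT and 1.74-fold in Pdgfb iKO mice. For the S phase sum these ratios were 1.83, 1.73, 1.49, 1.73 and 1.24. Each sum overlapped between CL and UUO kidneys in Veptp iECKO and in Pdgfb iKO mice, and in no other kind of mice. In Veptp iECKO mice the overlap was in the plain libraries, and the separated libraries alone did not overlap in either sum (ratios of 3.33 for mitosis and 1.73 for S phase). The mitosis sum divided by the S phase sum had group medians of 0.474 to 0.774 in CL and of 0.915 to 1.26 in UUO kidneys. These sums are descriptions, without a test, because the gene list was chosen with results of these data known.

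**Figure D1:**
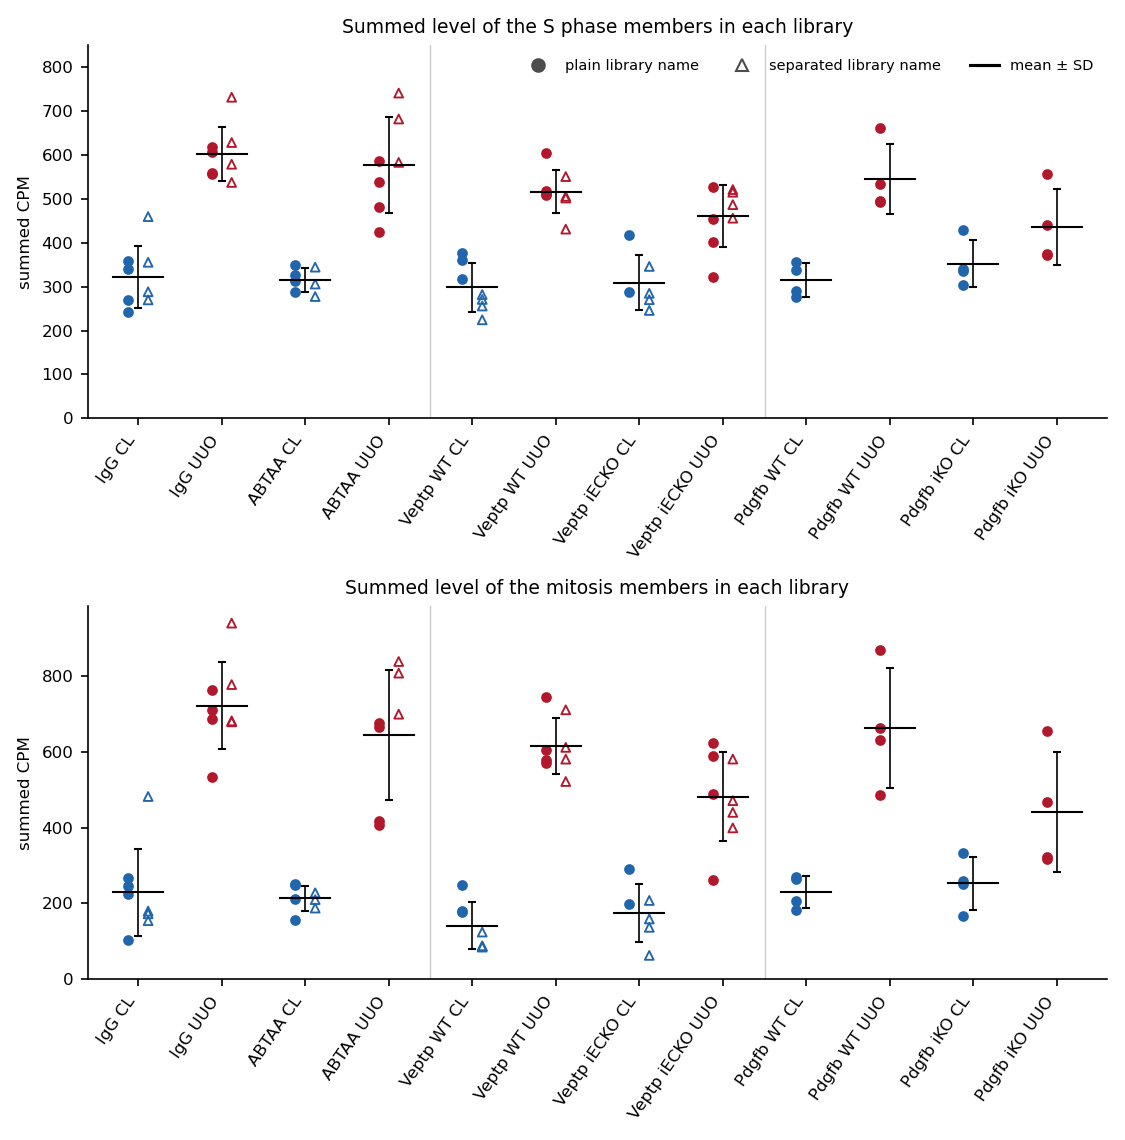
Summed level of the S phase genes and of the mitosis genes (vertical axes, CPM) in each library (points) of the 12 groups, as circles for plain and triangles for separated library names, with lines at group means and bars of 1 SD. UUO libraries lie above all CL libraries of the same mice except in Veptp iECKO and Pdgfb iKO mice, where the groups overlap.

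Gene by gene, the change was called in most members in 4 of the 6 kinds of mice (edgeR quasi-likelihood test, Benjamini-Hochberg adjusted p under 0.05 over all genes tested in the arm). Of 37 members tested in the ABTAA arm, 34 rose and 1 fell in IgG-treated mice, against 16.3% of all 9579 genes called higher and 18.2% called lower. In ABTAA-treated mice 35 rose and none fell, against 12.6% and 12.5% of all genes. Of 44 members tested in the Veptp arm, 37 rose in Veptp WT (10.0% of all 11916 genes higher, 8.38% lower). In Veptp iECKO mice 21 rose and 1 fell (4.47% and 3.47%), and with the name form as a covariate 37 of 44 were called there, along with 2561 of all genes. Of 41 tested in the Pdgfb arm, 34 rose and 1 fell in Pdgfb WT (17.9% and 19.4% of 10923 genes). In Pdgfb iKO mice 3 rose and 1 fell (3.94% and 2.42%).

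The mitosis genes rose in full in 3 comparisons. All 19 tested mitosis genes rose in IgG-treated and in ABTAA-treated mice, with median log2 fold changes of 1.54 and 1.47. All 25 tested rose in Veptp WT (median 2.47), 13 of 25 in Veptp iECKO (1.47), 20 of 22 in Pdgfb WT (1.54) and 3 of 22 in Pdgfb iKO mice (0.86). Of the S phase genes, 11 of 13 rose in IgG-treated mice (median 1.15), 12 of 13 in ABTAA-treated (1.01), 9 of 14 in Veptp WT (0.91), 7 of 14 in Veptp iECKO (0.95), 10 of 14 in Pdgfb WT (1.02) and 0 of 14 in Pdgfb iKO mice (0.44). The median over all genes tested lay between -0.01 and 0.04 in each comparison. Ccne1, Ccne2, Cdc6 and Bub1 had too few counts to be tested in any arm. Cdt1, Aurka, Aurkb and Bub1b were not tested in the ABTAA arm, and Plk1, Cenpa and Kif11 were tested in the Veptp arm alone. A gene that passes the filter on low counts may do so through the group where it is high, so these counts describe the tested members only.

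The count in Veptp iECKO mice differed between the forms of library name. Within separated libraries alone 34 of 47 members rose and 1 fell, where 2651 of all 12556 genes were called. Within plain libraries alone (2 CL and 4 UUO kidneys) 0 of 27 members and 0 of 7778 genes were called, with 8 members at an unadjusted p under 0.05. In Veptp WT mice 40 of 47 rose and 1 fell within separated libraries (3219 of 12556 genes called), and 12 of 27 rose within plain libraries (1090 of 7778 genes). In IgG-treated mice 34 of 42 rose and 1 fell within separated libraries (2935 of 10076 genes), and 27 of 35 rose and 1 fell within plain ones (2074 of 8898). In ABTAA-treated mice 33 of 42 rose within separated (2414 of 10076) and 16 of 35 within plain libraries (1031 of 8898). The number of calls over all genes thus changed along with that of the members. Without the 4 numbers that carry opposite genotypes, 5 of 42 members were called in Veptp iECKO (108 of 11034 genes) and 27 of 42 in Veptp WT mice (815 of 11034). Without the libraries that held both Xist and Y-linked counts, 30 of 41 were called in IgG-treated (2359 of 10012 genes), 25 of 41 in ABTAA-treated (1634 of 10012), 35 of 45 in Veptp WT (1729 of 12383) and 21 of 45 in Veptp iECKO mice (948 of 12383). For 28 members each alternative and each left-out library was followed gene by gene, and their calls were lost in at least 1 of these fits for 8 of 26 genes called in IgG-treated, 14 of 26 in ABTAA-treated, 9 of 22 in Veptp WT, 15 of 15 in Veptp iECKO, 7 of 24 in Pdgfb WT and 4 of 4 in Pdgfb iKO mice. Mki67, Top2a, Cdk1, Cenpe, Cenpf, Uhrf1, Lmnb1 and Stmn1 kept their calls in every such fit that tested them in both WT genotypes and in both groups of the ABTAA arm.

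**Figure D2:**
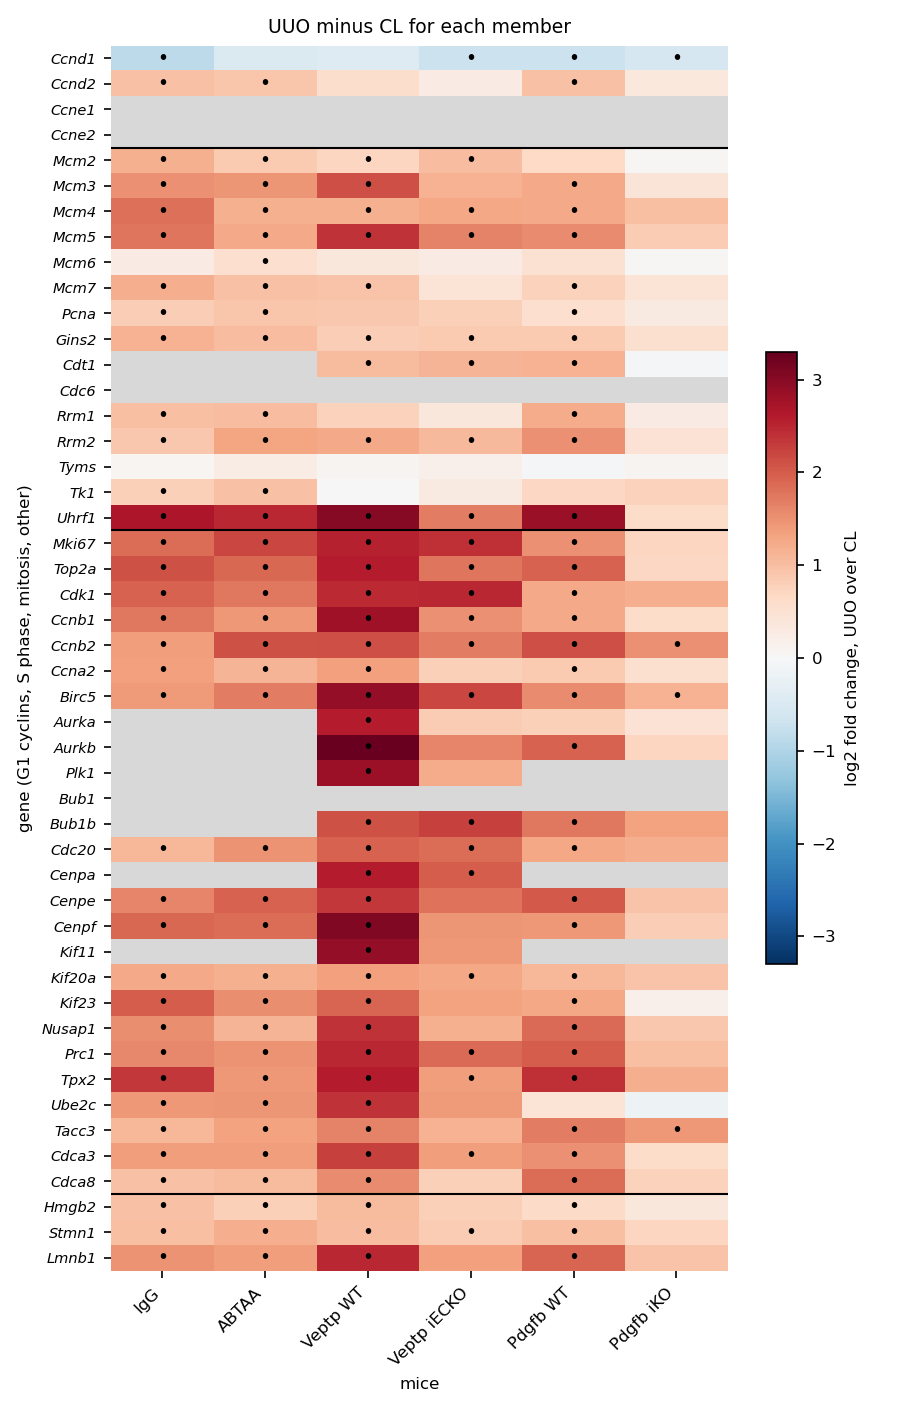
Log2 fold change of each member (rows, by class) in UUO against CL kidneys in the 6 kinds of mice (columns), with dots for adjusted p under 0.05 and grey cells for genes not tested. Mitosis genes reach median changes of 1.54 in IgG-treated and 2.47 in Veptp WT mice and 0.86 in Pdgfb iKO mice, and Ccnd1 is the member that fell.

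The D cyclins, which bind CDK4 and CDK6 and start the passage through G1, moved in opposite directions. Ccnd1 was at 123 to 225 CPM in CL kidneys of IgG-treated mice (median 186) and at 49.6 to 148 in UUO kidneys (median 99.4), a log2 fold change of -0.86 ± 0.23 (SE, n = 8 and 8, adjusted p = 0.00292, edgeR). It also fell in Veptp iECKO (-0.72 ± 0.17, adjusted p = 0.00793), Pdgfb WT (-0.72 ± 0.15, adjusted p = 0.000447) and Pdgfb iKO mice (-0.56 ± 0.16, adjusted p = 0.0308). The change was -0.47 ± 0.23 in ABTAA-treated (adjusted p = 0.15) and -0.43 ± 0.17 in Veptp WT mice (adjusted p = 0.0647), which missed the threshold. Ccnd1 was called in both with the name form as a covariate (adjusted p = 0.0416 and 0.017), in ABTAA-treated mice also with no filter (adjusted p = 0.0421), and in Veptp WT mice also in separated libraries alone (adjusted p = 0.0106) and with the replicate block (adjusted p = 0.016). Without TMM scaling Ccnd1 kept its sign in all 6 comparisons but was no longer called in Pdgfb WT (-0.34, adjusted p = 0.0774) or Pdgfb iKO mice (-0.48, adjusted p = 0.0827). In IgG-treated mice the call was also lost without the libraries that held both Xist and Y-linked counts (-0.62, adjusted p = 0.14), and in Veptp iECKO mice within plain libraries (-0.28, adjusted p = 0.866) and without the numbers 3, 4, 7 and 8 (-0.48, adjusted p = 0.362). Thinning to the shallowest library ended the call of Ccnd1 in IgG-treated (adjusted p = 0.0635), Veptp iECKO (adjusted p = 0.0609) and Pdgfb WT mice (adjusted p = 0.0714). In Pdgfb iKO mice it was lost in 5 of the 16 fits that left out a single library and with all 12 groups in 1 fit (adjusted p = 0.423).

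Ccnd2, the D cyclin that rose, was at 20 to 36.5 CPM in CL kidneys (median 24.0) and at 38.4 to 80.5 in UUO kidneys (median 43.4) of IgG-treated mice, and these groups did not overlap. Its log2 fold change was 0.96 ± 0.18 with IgG (adjusted p = 7.78e-05), 0.91 ± 0.19 with ABTAA (adjusted p = 0.000338) and 0.97 ± 0.20 in Pdgfb WT mice (adjusted p = 0.000311). It was 0.57 ± 0.33, 0.26 ± 0.36 and 0.36 ± 0.23 in Veptp WT, Veptp iECKO and Pdgfb iKO mice, with adjusted p of 0.261 or more.

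The MCM2-7 proteins form the helicase ring that is loaded at origins and unwinds DNA. In IgG-treated mice 5 of these 6 subunits rose, with log2 fold changes of 1.18 ± 0.28 for Mcm2, 1.51 ± 0.31 for Mcm3, 1.82 ± 0.29 for Mcm4, 1.77 ± 0.32 for Mcm5 and 1.21 ± 0.20 for Mcm7. Mcm2 went from 6.96 to 24.5 CPM in CL (median 14.3) to 20.3 to 41.5 in UUO kidneys (median 35.8), with overlapping groups. Mcm6 was the exception. It was at 22.9 to 62.8 CPM in CL (median 42.3) and 39.5 to 68.3 in UUO kidneys (median 46.9), a change of 0.26 ± 0.17 (adjusted p = 0.235). Mcm6 was called in ABTAA-treated mice (0.56 ± 0.17, adjusted p = 0.0129) and there neither name form alone gave the call (adjusted p = 0.108 and 0.099). The call was also lost with no filter (adjusted p = 0.0683), after thinning (0.36, adjusted p = 0.385) and without the libraries that held both Xist and Y-linked counts (0.42, adjusted p = 0.209). In Pdgfb WT mice (0.51, adjusted p = 0.0676) it was called under 6 of 8 alternatives, among them edgeR's exact test (adjusted p = 0.0305). In Veptp WT mice (0.38, adjusted p = 0.163) it was called with the name form as a covariate (adjusted p = 0.0459) and with the replicate block (adjusted p = 0.0296). Its promoter holds the E2F motif printed above, as do those of Mcm5 and Mcm7. In Pdgfb iKO mice the 6 subunits ranged from 0.03 ± 0.32 for Mcm2 to 1.00 ± 0.36 for Mcm4, and none was called.

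Among the other replication genes the change was uneven. Pcna, the sliding clamp of the replicative polymerases, was at 42.6 to 82.6 CPM in CL (median 54.8) and 72.3 to 133 in UUO kidneys (median 108) of IgG-treated mice, a log2 fold change of 0.82 ± 0.18 (adjusted p = 0.000581). It also rose in ABTAA-treated (0.91 ± 0.19) and Pdgfb WT mice (0.57 ± 0.18, adjusted p = 0.0174, lost with all 12 groups in 1 fit at 0.277 and in 2 of the 16 fits that left out a single library), and was not called in either genotype of the Veptp arm, where its values spanned 18.8 to 73.6 CPM in Veptp WT CL kidneys alone. With the name form as a covariate Pcna was called in both, at 0.88 in Veptp WT (adjusted p = 7.25e-05) and 0.60 in Veptp iECKO mice (adjusted p = 0.0138). Pcna is also induced by DNA damage, so it is not specific to S phase. Gins2, a subunit of the replicative helicase, rose in 5 comparisons by 0.82 to 1.15, and Cdt1, which loads the MCM ring, rose in the 3 comparisons of Veptp and Pdgfb WT and Veptp iECKO mice by 1.04 to 1.16.

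The enzymes that supply nucleotides were called in different numbers of comparisons. The ribonucleotide reductase subunits Rrm1 and Rrm2, which make deoxyribonucleotides, rose in 3 and in 5 comparisons, by 0.89 ± 0.27 for Rrm2 in IgG-treated mice (adjusted p = 0.0111, and 0.0574 without IgG UUO replicate 8). That call of Rrm2 was also lost within plain libraries (adjusted p = 0.0937) and without the libraries that held both Xist and Y-linked counts (adjusted p = 0.0748). Rrm1 in Veptp WT mice (0.75, adjusted p = 0.0786) was called under 8 of 13 alternatives, among them DESeq2 (adjusted p = 0.0289) and edgeR's exact test (adjusted p = 0.015). The thymidine kinase Tk1 rose in the ABTAA arm alone, by 0.78 ± 0.29 in IgG-treated (adjusted p = 0.035) and 0.96 ± 0.29 in ABTAA-treated mice. Tyms, the thymidylate synthase, was called in no comparison of all libraries, and within separated libraries alone it was called in ABTAA-treated mice (0.68, adjusted p = 0.0461). It was at 40.4 to 65.2 CPM in CL (median 49.8) and 37.2 to 68.3 in UUO kidneys (median 50.3) of IgG-treated mice, a log2 fold change of 0.06 ± 0.16, and lay between -0.03 and 0.24 in the other kinds of mice.

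Uhrf1, which recruits the maintenance DNA methyltransferase to newly copied DNA, showed the largest change of the S phase genes tested in 5 of the 6 kinds of mice, all but Pdgfb iKO. In IgG-treated mice it went from 0 to 7.73 CPM in CL (median 4.57) to 17.1 to 45.2 in UUO kidneys (median 26.4), a log2 fold change of 2.66 ± 0.32, or 6.31-fold (adjusted p = 4.18e-08). The groups did not overlap. The change was 2.49 ± 0.34 in ABTAA-treated, 2.99 ± 0.47 in Veptp WT, 1.69 ± 0.47 in Veptp iECKO and 2.84 ± 0.43 in Pdgfb WT mice, and 0.60 ± 0.41 in Pdgfb iKO mice (adjusted p = 0.449).

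Mki67 and Top2a, both used as marks of dividing cells, rose in the same 5 kinds of mice. MKI67 coats mitotic chromosomes, and TOP2A untangles them. Mki67 was at 6.99 to 50.6 CPM in CL (median 20.5) and 38.4 to 110 in UUO kidneys (median 78.6) of IgG-treated mice, a log2 fold change of 1.84 ± 0.27 (adjusted p = 1.81e-06). The ranges overlapped in IgG-treated mice and not in ABTAA-treated mice, where Mki67 was at 11.0 to 21.3 CPM in CL and 31.1 to 124 in UUO kidneys. Top2a went from 6.97 to 34.4 CPM (median 15.1) to 52.5 to 80.5 (median 71.1), a change of 2.09 ± 0.23 with no overlap (adjusted p = 9.88e-09). In Veptp WT mice Mki67 changed by 2.55 ± 0.39 and Top2a by 2.60 ± 0.38, and in Veptp iECKO mice by 2.42 ± 0.43 and 1.76 ± 0.40. Both Veptp iECKO calls were lost after thinning (adjusted p = 0.0756 and 0.155) and within plain libraries (adjusted p = 0.519 and 0.652). That of Top2a was also lost without the numbers 3, 4, 7 and 8 (adjusted p = 0.0638). In Pdgfb WT mice these changes were 1.51 ± 0.26 and 1.95 ± 0.27, and in Pdgfb iKO mice 0.72 ± 0.31 (adjusted p = 0.177) and 0.67 ± 0.29 (adjusted p = 0.189).

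**Figure D3:**
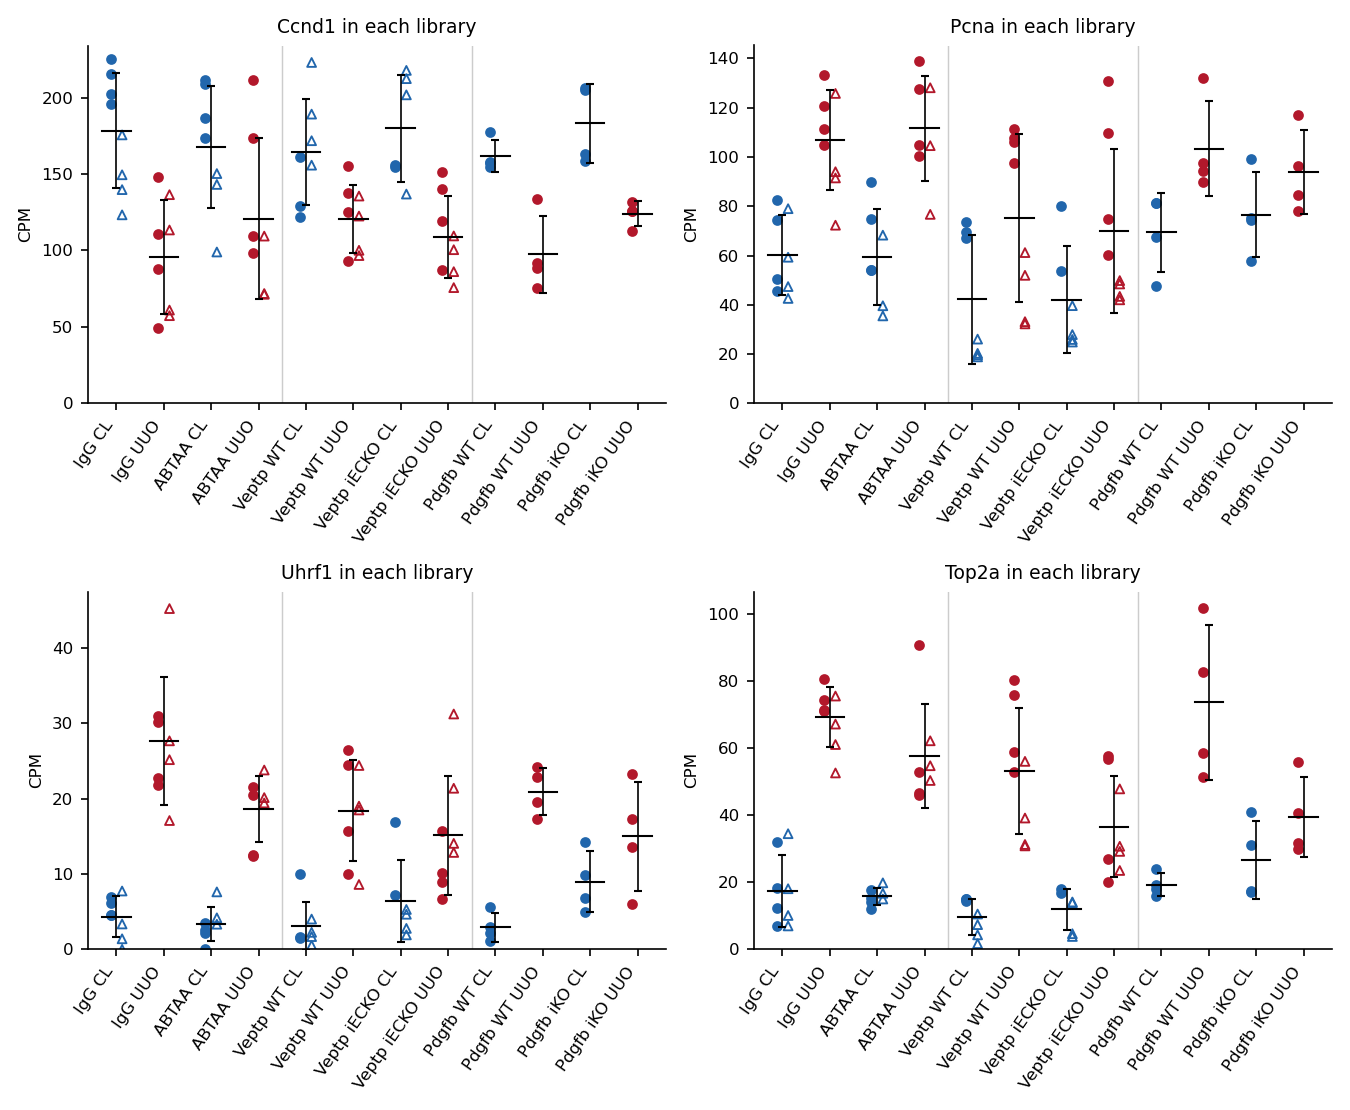
CPM of Ccnd1, Pcna, Uhrf1 and Top2a (vertical axes) in each library (points) of the 12 groups, as circles for plain and triangles for separated library names, with lines and bars for mean and SD. Top2a and Uhrf1 are higher in UUO than in CL kidneys of IgG-treated mice without overlap, and Ccnd1 is lower, at a median of 99.4 against 186 CPM.

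The kinase and cyclins that start mitosis rose with them. Cdk1, the mitotic kinase, went from 6.97 to 27.4 CPM in CL (median 9.06) to 35.7 to 69.5 in UUO kidneys (median 43.1) of IgG-treated mice, a log2 fold change of 1.95 ± 0.27 with no overlap. It was called in 5 comparisons and was 1.21 ± 0.38 in Pdgfb iKO mice (adjusted p = 0.0567), where Cdk1 was called without TMM factors (adjusted p = 0.0375), with no filter (adjusted p = 0.0013) and by edgeR's exact test (adjusted p = 0.0313). Its cyclin partners Ccnb1, Ccnb2 and Ccna2 changed by 1.74 ± 0.37, 1.38 ± 0.34 and 1.36 ± 0.24 in IgG-treated mice. Ccnb2 was called in all 6 comparisons and Ccnb1 in 5, whereas Ccna2 missed the threshold in Veptp iECKO (0.77 ± 0.27, adjusted p = 0.0739) and Pdgfb iKO mice. In Veptp iECKO mice Ccna2 was called with the name form as a covariate (adjusted p = 0.00621) and by DESeq2 (adjusted p = 0.0265). The Ccnb1 call in Pdgfb WT mice (adjusted p = 0.0424) was lost with DESeq2 (adjusted p = 0.129), with all 12 groups in 1 fit (adjusted p = 0.0637) and in 5 of the 16 fits that left out a single library. The Ccnb2 call in Pdgfb iKO mice was lost in 6 of 16 such fits and with all 12 groups in 1 fit (adjusted p = 0.174).

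The chromosomal passenger and spindle genes rose in Veptp WT mice. Birc5, which encodes survivin, was called in all 6 comparisons, from 1.14 ± 0.35 in Pdgfb iKO (adjusted p = 0.04997) to 2.89 ± 0.58 in Veptp WT mice. Its call in Pdgfb iKO mice was lost with DESeq2 (adjusted p = 0.0744) and in 9 of the 16 fits that left out a single library. The Birc5 call in Veptp iECKO mice (adjusted p = 0.0266) was lost in 4 of 29 such fits, with the compared groups alone (adjusted p = 0.0786), within plain libraries (0.50, adjusted p = 0.891) and without the numbers 3, 4, 7 and 8 (adjusted p = 0.307). Aurkb, the kinase of the same complex, changed by 3.25 ± 0.58 in Veptp WT (adjusted p = 9.56e-05) and 1.60 ± 0.57 in Veptp iECKO mice (adjusted p = 0.0775). Aurka and Plk1, kinases that build the spindle poles, changed by 2.58 ± 0.53 and 2.83 ± 0.46 in Veptp WT mice, and by 0.85 ± 0.51 and 1.23 ± 0.45 in Veptp iECKO mice, where neither was called. The difference between the responses of the 2 genotypes was not called for Aurka, Aurkb or Plk1 (adjusted p = 0.9998). Tpx2, which activates Aurora A on the spindle, was called in 5 comparisons, by 2.33 ± 0.37 in IgG-treated and 2.60 ± 0.33 in Veptp WT mice.

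The remaining mitosis genes encode kinetochore proteins (Cenpa, Cenpe, Cenpf, Bub1b), spindle motors and bundlers (Kif11, Kif20a, Kif23, Prc1, Nusap1, Tacc3) and the anaphase machinery with its regulators (Cdc20, Ube2c, Cdca3, Cdca8). All of them that were tested rose in IgG-treated mice, from 0.97 ± 0.32 for Cdca8 to 1.99 ± 0.38 for Kif23. There the call of Cdc20 was lost within separated libraries (adjusted p = 0.172), without the Xist and Y-linked libraries (adjusted p = 0.212) and in 3 of 30 fits that left out a single library. That of Tacc3 was lost within separated libraries (adjusted p = 0.054) and without the Xist and Y-linked libraries (adjusted p = 0.183), and that of Kif20a without the latter (adjusted p = 0.0521). In Veptp WT mice they rose by 1.35 ± 0.30 (Kif20a) to 3.06 ± 0.70 (Cenpf). In Pdgfb WT mice Ube2c, which marks proteins for destruction at anaphase (0.46 ± 0.31, adjusted p = 0.259), and Aurka (0.79 ± 0.36, adjusted p = 0.0863) were the tested mitosis genes that missed the threshold. Without TMM factors Ube2c was called there (0.84, adjusted p = 0.0263). Over the 6 comparisons, 2 mitosis genes (Birc5 and Ccnb2) were called higher in all 6, 10 in 5 and 6 in 4. The Pdgfb iKO calls of these 2 were lost in some fits, as given above. Of the S phase genes 5 were called in 5 comparisons, 3 in 4 and none in all 6. How many of all genes were called in as many comparisons was not counted.

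The other 3 members, Hmgb2, Lmnb1 and Stmn1, rose with them in IgG-treated mice. Hmgb2, a DNA-bending protein, went from 21.0 to 88.7 CPM in CL (median 54.1) to 82.4 to 155 in UUO kidneys (median 111) of IgG-treated mice, a log2 fold change of 0.96 ± 0.17. Stmn1, which destabilizes microtubules, changed by 0.98 ± 0.18 with no overlap, from 21.0 to 72.9 CPM to 85.1 to 140. Lmnb1, a lamin of the nuclear envelope, changed by 1.49 ± 0.26, also with no overlap. All 3 rose in both groups of the ABTAA arm and in Veptp WT and Pdgfb WT mice. The Hmgb2 call in Veptp WT mice (adjusted p = 0.0442) was lost in 8 of the 29 fits that left out a single library, with the compared groups alone (adjusted p = 0.0597), after thinning (adjusted p = 0.0972), without the numbers 3, 4, 7 and 8 (adjusted p = 0.176) and without the libraries that held both Xist and Y-linked counts (adjusted p = 0.0792). Its call was also lost in ABTAA-treated mice within plain libraries (adjusted p = 0.0781) and without the Xist and Y-linked libraries (adjusted p = 0.0654), and in Pdgfb WT mice with all 12 groups in 1 fit (adjusted p = 0.179). In Veptp iECKO mice Stmn1 was called (0.83 ± 0.17, adjusted p = 0.00221, lost within plain libraries at 0.699 and without the numbers 3, 4, 7 and 8 at 0.11), and Hmgb2 (adjusted p = 0.261) and Lmnb1 (adjusted p = 0.108) missed the threshold. Both were called there with the name form as a covariate (adjusted p = 0.0267 and 0.0268) and with the replicate block (adjusted p = 0.0311 and 0.0164). That block joins opposite genotypes at the numbers 3, 4, 7 and 8. It covers separated libraries only, so it is not independent of the name form. In Pdgfb iKO mice none was called (Stmn1 0.72 ± 0.22, adjusted p = 0.0501), although Stmn1 was under 5 of 8 alternatives, with adjusted p from 0.0126 (no filter) to 0.0459 (mean count of at least 20).

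Every UUO library lay above every CL library for 12 members in IgG-treated mice (11 of them tested, where 4.18% of all genes tested did so) and for 9 in ABTAA-treated mice (8 tested, 3.85%). In Veptp WT mice 19 members did so (18 tested, 3.28%), in Veptp iECKO 6 (0.688%), in Pdgfb WT 35 (31 tested, 16.8%) and in Pdgfb iKO mice 3 (6.19%). Ccnd1 lay wholly below in both kinds of Pdgfb mice.

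Other cells changed in the same kidneys. Summed macrophage markers were at 114 to 497 CPM in CL and 320 to 1189 in UUO kidneys, with 8 to 10 of the 10 markers called higher in 5 kinds of mice and 6 in Pdgfb iKO mice. Summed fibroblast and pericyte markers were at 140 to 847 CPM in CL and 421 to 2126 in UUO kidneys, and the injury gene Havcr1 was at 4.18 to 228 CPM in CL and 281 to 2019 in UUO kidneys. Proximal tubule markers were lower, at 5524 to 7833 CPM in CL and 2325 to 4226 in UUO kidneys of IgG-treated mice, and so were those of the loop, distal tubule and collecting duct (6680 to 9112 against 2380 to 4427). The part of these cells in the cell cycle result was not tested. No lymphocyte or neutrophil marker passed the filter on low counts.

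No member was called between ABTAA-treated and IgG-treated mice. Called members were 0 of 37 in UUO kidneys, in CL kidneys and for the difference between the responses to UUO, and 0% of all genes were called in each of these comparisons (edgeR, DESeq2 also called 0 members). At an unadjusted p under 0.05 there were 1, 0 and 0 members, against 340, 303 and 315 genes in all. The member in UUO kidneys was Tpx2, at -0.92 ± 0.33 (unadjusted p = 0.00815, adjusted p = 0.9999). For Mki67 the difference in UUO kidneys was -0.07 ± 0.25, with a 95% interval of -0.56 to 0.42, and for Top2a it was -0.23 ± 0.20 (-0.63 to 0.17). Median differences in UUO kidneys were -0.15 for S phase and -0.22 for mitosis genes, against 0.01 over all genes. ABTAA UUO replicates 1 and 2 had the lowest mitosis sums of their group, 417 and 407 CPM, and the highest proximal tubule sums, 5286 and 5267 CPM. How these values are related was not tested.

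Between Veptp iECKO and Veptp WT mice 0 of 44 members were called in UUO kidneys, in CL kidneys or in the difference between their responses, and 0% of all genes were called in each (0 members by DESeq2 as well). At an unadjusted p under 0.05 there were 2, 3 and 5 members, against 426, 229 and 324 genes. The 5 members were Ccnb1, Aurka, Plk1, Nusap1 and Tpx2, all mitosis genes with a smaller response in Veptp iECKO mice, from -1.21 ± 0.47 for Tpx2 to -1.73 ± 0.73 for Aurka (adjusted p of 0.9998). Of 25 mitosis genes 23 had a negative difference of response (median -0.69, all genes 0.02), and of 14 S phase genes 8 did (median -0.10). None of these was called, and genes measured in the same libraries do not give independent signs, here or in the next count. In UUO kidneys 24 of the 25 mitosis genes were lower in Veptp iECKO mice by sign (median -0.43, all genes 0.01), and summed macrophage markers were at 320 to 774 CPM against 583 to 952, with overlap. Summed fibroblast and pericyte markers were at 421 to 1239 CPM in Veptp iECKO and 1182 to 2126 in Veptp WT UUO kidneys, and endothelial markers at 115 to 272 against 204 to 329. The part of these cells in this was not tested. In UUO kidneys the difference was -0.41 ± 0.34 for Mki67 (95% interval -1.08 to 0.26) and -0.53 ± 0.33 for Top2a (-1.17 to 0.11), and both intervals include 0. Veptp iECKO CL replicate 2 stood apart from its group, with 497 CPM of macrophage markers, 15844 CPM of injured tubule markers, 228 CPM of Havcr1 and the highest mitosis sum of its group (291 CPM). Veptp iECKO UUO replicate 4 had the lowest mitosis sum (263 CPM) and the lowest macrophage sum (320 CPM) of its group.

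**Figure D4:**
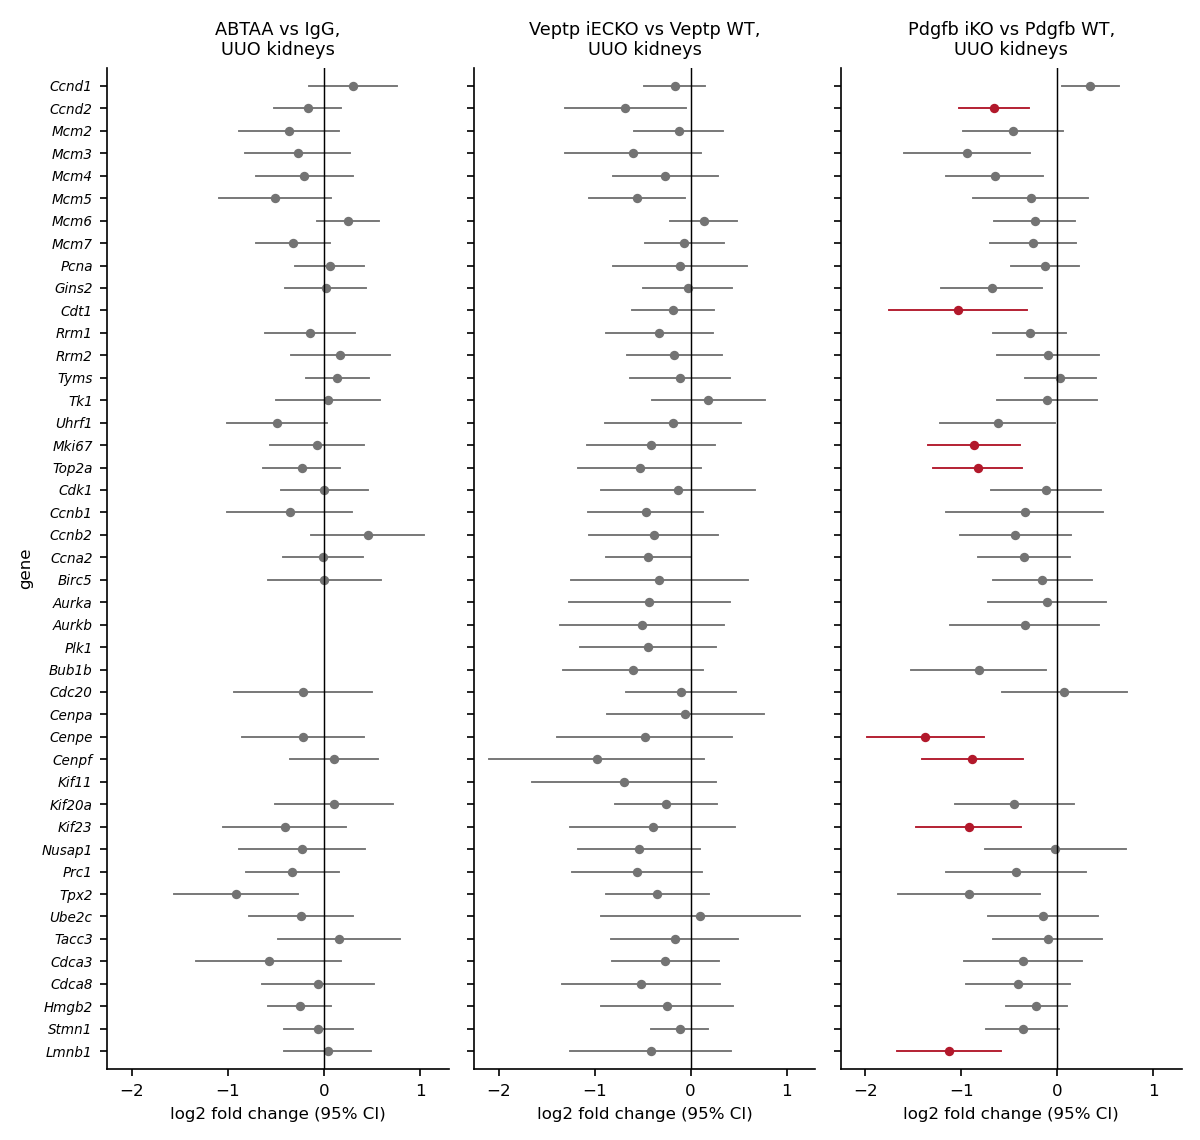
Log2 fold change of each tested member (rows) in UUO kidneys between treated or knockout mice and their controls, in 3 panels for the 3 arms, with 95% intervals and called members in red. No member is called in the ABTAA and Veptp arms, and 8 are called in the Pdgfb arm, all lower in Pdgfb iKO mice.

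UUO kidneys labelled Pdgfb iKO held less of 8 members than Pdgfb WT UUO kidneys, and more of none. Of 41 members tested 19.5% were called, where 18.6% of all genes were called in either direction, and for calls in this direction the share over all genes was 6.58%. The 8 were Mki67, Top2a, Cenpe, Cenpf and Kif23 (mitosis), Cdt1 (S phase), Ccnd2 and Lmnb1. Median differences were -0.38 for the 22 mitosis and -0.28 for the 14 S phase genes, against -0.02 over all genes, and 38 of 41 members had a negative difference. The members were measured in the same libraries, so their signs are not independent of each other. The Pdgfb iKO response to UUO and this comparison share the UUO libraries, so they are not independent either.

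Mki67 was at 71.8, 89.3, 61.3 and 62.5 CPM in the 4 Pdgfb WT UUO kidneys and at 26.5, 43.9, 22.3 and 55.8 in the 4 Pdgfb iKO UUO kidneys, a log2 difference of -0.87 ± 0.24 (adjusted p = 0.0137, edgeR). All 4 knockout values lay below all 4 controls. The CL kidneys held 13.5, 23.8, 32.6 and 30.6 CPM (Pdgfb WT) and 29.7, 14.8, 31.9 and 17.9 CPM (Pdgfb iKO), with full overlap. Top2a was at 102, 82.8, 51.3 and 58.5 CPM against 29.8, 40.5, 31.7 and 55.8, a difference of -0.83 ± 0.24 (adjusted p = 0.0147), with replicate 4 of the knockouts inside the control range. Cenpe, a kinetochore motor, showed the largest difference, at 38.1, 29.4, 16.8 and 23.4 CPM against 9.95, 9.01, 11.2 and 10.2 (-1.37 ± 0.31, adjusted p = 0.00263). These Cenpe values do not overlap. The share of all genes without overlap between these UUO groups was not counted, here or for the genes below. Between UUO and CL kidneys of Pdgfb WT mice, also 4 and 4 libraries, 16.8% of all genes lay wholly above.

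Lmnb1 was at 34.9, 39.6, 25.2 and 43.9 CPM in Pdgfb WT and 16.6, 18.0, 9.43 and 20.4 in Pdgfb iKO UUO kidneys (-1.13 ± 0.28, adjusted p = 0.00513), again without overlap. Ccnd2 was at 45.7, 48.0, 46.9 and 52.7 against 23.2, 28.2, 29.2 and 36.1 CPM (-0.66 ± 0.19, adjusted p = 0.0149), and these groups were apart as well. Cenpf (-0.88 ± 0.27), Kif23 (-0.92 ± 0.28) and Cdt1 (-1.04 ± 0.37) had adjusted p of 0.0212, 0.0218 and 0.0488. Ccnd1 had the opposite sign (0.34 ± 0.15, adjusted p = 0.123). In CL kidneys 0 of 41 members were called and 0% of all genes (0 members by DESeq2 as well), with 3 members and 378 genes at an unadjusted p under 0.05.

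Within Pdgfb iKO mice, Ccnb2, Birc5 and Tacc3 rose and Ccnd1 fell after UUO. Ccnb2 was at 9.03, 7.42, 6.83 and 6.98 CPM in CL and 13.3, 33.8, 12.9 and 24.4 in UUO kidneys (1.51 ± 0.43, adjusted p = 0.0339). Tacc3, a spindle protein, was at 10.3, 4.95, 0 and 8.97 against 6.63, 21.4, 13.7 and 28.3 CPM (1.44 ± 0.41, adjusted p = 0.0347), with overlap. Ccnd1 was at 206, 158, 205 and 163 CPM in CL and 126, 113, 126 and 132 in UUO kidneys. The number called ranged from 0 to 6 when single libraries were left out. It was 0 without Pdgfb iKO CL replicate 3 or UUO replicate 4, and 1 without Pdgfb iKO CL replicate 2 or 4 or UUO replicate 2.

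The difference between the responses of the 2 genotypes was called for 2 members of 41, Uhrf1 (-2.24 ± 0.64, adjusted p = 0.0289) and Top2a (-1.27 ± 0.40, adjusted p = 0.0496), where 8.56% of all genes were called. Uhrf1 was at 1.13, 5.60, 2.97 and 2.11 CPM in CL and 24.1, 22.8, 17.2 and 19.5 in UUO kidneys of Pdgfb WT mice. In Pdgfb iKO mice it was at 14.2, 9.90, 6.83 and 4.98 CPM in CL and 23.2, 13.5, 6.00 and 17.3 in UUO kidneys, so that its CL median was higher (1.62 ± 0.56, unadjusted p = 0.00808, adjusted p = 0.99999, not called) and its UUO median lower (-0.62 ± 0.31, adjusted p = 0.168). All 22 mitosis genes and 12 of 14 S phase genes had a negative difference of response, with medians of -0.64 and -0.55 (all genes 0.00). The genes were measured in the same libraries, so these signs are not independent. Sham-operated kidneys in the Pdgfb WT CL group enter this difference, and their part in it was not tested. No member was called without Pdgfb WT CL replicate 1, Pdgfb iKO CL replicate 1 or Pdgfb iKO UUO replicate 3, and 1 remained without Pdgfb WT CL replicate 3 or 4, Pdgfb iKO CL replicate 3, Pdgfb WT UUO replicate 1 or 2, or Pdgfb iKO UUO replicate 1 or 2. The 8 calls in UUO kidneys became 2 without Pdgfb iKO UUO replicate 3 and 4 without Pdgfb WT UUO replicate 1 or Pdgfb iKO UUO replicate 2, and 0 when all 12 groups were fitted together. That joint fit called 322 of 12210 genes between the UUO kidneys, against 2034 of 10923 in the main fit. For the difference of response it called 10 genes, against 935.

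Markers of other cells moved with this comparison. Summed macrophage markers were at 620 to 931 CPM in Pdgfb WT and 421 to 490 in Pdgfb iKO UUO kidneys, with 6 of 10 markers called lower. Summed fibroblast and pericyte markers were at 1299 to 1721 against 465.7 to 1048 CPM (7 of 8 called lower), and proximal tubule markers at 1651 to 2541 against 3083 to 5378 (7 of 8 called higher). Markers of the loop, distal tubule and collecting duct were at 2201 to 2549 against 3718 to 5338 CPM, erythroid markers at 323 to 427 against 567 to 838 and lymphocyte markers at 15.6 to 21.6 against 6.00 to 14.1. None of these 6 sums overlapped. Endothelial markers were at 222 to 305 CPM in Pdgfb WT and 149 to 224 in Pdgfb iKO UUO kidneys. Injured tubule markers were at 14760 to 20810 against 10010 to 17760 CPM (2 of 8 called lower). Pdgfb iKO UUO replicate 4 had the highest mitosis sum of its group (654 CPM, the others 318 to 469) and the lowest proximal tubule sum (3083 CPM). The part of these cells in the lower cell cycle transcripts was not tested. All 4 Pdgfb iKO UUO libraries held both Xist and Y-linked counts, so this comparison could not be repeated without such libraries.

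Levels of members differed between the forms of library name in both arms that have them. In the ABTAA arm 5 members were higher and 2 lower in separated than in plain libraries of the same groups, where 18.0% of all genes were called higher and 21.5% lower. In the Veptp arm 2 were higher and 13 lower, where 32.7% and 26.7% of all genes were called. There Hmgb2 (-1.30 ± 0.13), Pcna (-1.35 ± 0.13), Birc5 (-1.90 ± 0.25) and Ube2c (-1.93 ± 0.30) were lower in separated libraries, and Mcm7 (0.38 ± 0.14) and Tk1 (0.71 ± 0.24) higher. Pcna, also lower in the ABTAA arm (-0.34 ± 0.12, adjusted p = 0.0214), was the member lower in both. Its call in the ABTAA arm was lost without TMM factors (-0.21, adjusted p = 0.181), after thinning (adjusted p = 0.193) and in 9 of the 30 fits that left out a single library. Rrm1 was higher in the ABTAA arm (0.46 ± 0.15) and lower in the Veptp arm (-0.55 ± 0.19), where the difference was -0.08 without TMM factors (adjusted p = 0.713). The direction in the Veptp arm depended on scaling. Without TMM 12 members were higher and 8 lower, with a median over all genes of 0.55 in place of 0.10, and in the ABTAA arm 9 were higher and 1 lower, with a median of 0.14 in place of 0.00. The shares of all genes called higher and lower were not counted without TMM, so these member counts stand without a background.

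**Figure D5:**
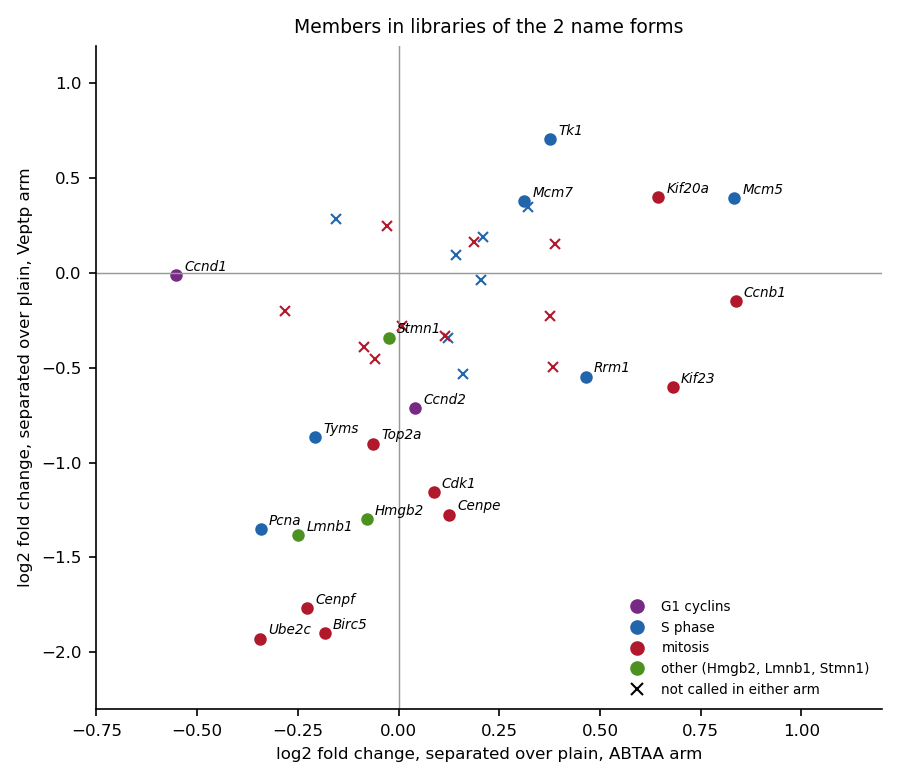
Log2 difference between separated and plain libraries for the 37 members tested in both arms, with the ABTAA arm on the horizontal and the Veptp arm on the vertical axis, coloured by class, and crosses for members called in neither arm. Pcna is below 0 on both axes, at -0.34 and -1.35, and its call in the ABTAA arm was lost without TMM factors.

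In the ABTAA arm no member was called for a difference of response between forms (0.0104% of all genes called higher and 0.0209% lower, and 4 members at an unadjusted p under 0.05, with 0 by DESeq2). In the Veptp arm Birc5 had a larger response in separated libraries, by 2.20 ± 0.47 (adjusted p = 0.0178), where 0.143% of all genes were called higher and 0.294% lower. This call was lost without Veptp WT CL replicate 1 (adjusted p = 0.149) or Veptp iECKO CL replicate 2 (adjusted p = 0.497), and without Veptp iECKO CL replicate 4 a second member was called. The UUO over CL ratio of the mitosis sum was 6.30 in separated and 3.09 in plain libraries of Veptp WT mice, 3.33 and 2.01 in Veptp iECKO, 3.75 and 2.49 in ABTAA-treated and 3.11 and 3.19 in IgG-treated mice.

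A further 137 cell cycle genes set the members in context. Of these 74, 96 and 89 were tested in the ABTAA, Veptp and Pdgfb arms. In UUO against CL kidneys 27 rose and 2 fell in IgG-treated, 31 and 1 in ABTAA-treated, 34 and 1 in Veptp WT, 21 and 0 in Veptp iECKO, 41 and 4 in Pdgfb WT and 6 and 0 in Pdgfb iKO mice. Over all genes the shares called higher were 16.3, 12.6, 10.0, 4.47, 17.9 and 3.94%, in the same order, so that 6 of 89 in Pdgfb iKO mice is near the background. Median changes of the further genes were 0.57, 0.59, 0.70, 0.55, 0.72 and 0.39. The further mitosis genes rose most often, 12 of 21 in IgG-treated and 19 of 28 in Veptp WT mice, among them Anln, a scaffold of the cleavage furrow (2.49 ± 0.44), Ckap2l (2.09 ± 0.33) and the condensin subunit Smc4 (1.36 ± 0.24) in IgG-treated mice. Of the further replication genes 5 of 21 rose in IgG-treated mice, near the share over all genes, led by Pclaf, a PCNA partner (2.43 ± 0.29), and Pold1, the catalytic subunit of polymerase delta (2.02 ± 0.39).

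An inhibitor of the cycle rose as well. Cdkn1a, which encodes the CDK inhibitor p21, was at 0 to 25.9 CPM in CL (median 9.27) and 18.1 to 99.1 in UUO kidneys (median 49.7) of IgG-treated mice, with slight overlap. It rose in all 6 kinds of mice, by 2.29 ± 0.39 in IgG-treated, 1.89 ± 0.37 in ABTAA-treated, 2.50 ± 0.38 in Veptp WT, 2.33 ± 0.44 in Veptp iECKO, 2.73 ± 0.24 in Pdgfb WT and 1.54 ± 0.26 in Pdgfb iKO mice. In UUO kidneys it was lower in Pdgfb iKO than in Pdgfb WT mice (-0.73 ± 0.19, adjusted p = 0.0088). No other CDK inhibitor that was tested was called, and Cdkn2a and Cdkn2b were not tested.

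The growth gene Myc also rose in all 6, by 2.35 ± 0.37 in IgG-treated and 1.68 ± 0.40 in Pdgfb iKO mice. E2f1, the activator of the S phase genes, rose in both groups of the ABTAA arm (1.04 ± 0.31 with IgG, 1.38 ± 0.31 with ABTAA) and in Pdgfb WT mice (1.58 ± 0.33). Foxm1 was tested in the Veptp arm alone, where it rose in Veptp WT (1.95 ± 0.49, adjusted p = 0.00386) and missed the threshold in Veptp iECKO mice (1.42 ± 0.52, adjusted p = 0.0845), and Mybl2 was not tested. Between Pdgfb iKO and Pdgfb WT UUO kidneys 8 of the 89 further genes tested were lower and 2 higher, where 719 of all 10923 genes (6.58%) were lower and 1315 higher. The share that was lower is thus near that over all genes. The lower genes were Cdk6 (-0.80 ± 0.15), Cdkn1a, Egr1 (-1.43 ± 0.35), Jun (-0.79 ± 0.23), Rfc1, Lig1 (-0.99 ± 0.27), Pclaf (-0.80 ± 0.26) and Ndc80 (-1.07 ± 0.38). The higher genes were Pttg1, which encodes securin (0.66 ± 0.18), and Cks2 (0.47 ± 0.14).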

How the data were processed

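Kidneys were taken 3 days after UUO, and 75 libraries in 12 groups and 3 arms were used. Per the labels and the study's methods, RNA was prepared by a Smart-seq3-type protocol in quadruplicate wells, which the authors merged. The submitters' processing notes name STAR 2.7.3a, UMI-tools 1.1.4, featureCounts (Subread 1.4.6-p5) and mm10. The values used are the raw counts per gene that the authors deposited (32245 genes, 4299 of them without a count). Whether counting used strand is not given in the sources used here.

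Counts were tested per arm with edgeR 4.0.16 in R 4.3.3 (quasi-likelihood test, TMM factors, filterByExpr by group), with Benjamini-Hochberg adjustment over all genes tested in the arm and a threshold of 0.05. SE is the absolute log2 fold change divided by the root of F. The exact test of edgeR, which the study names, was among the alternatives. CPM were scaled by TMM over all 75 libraries. Marker sums and sums over members carry no test. Total counts ranged from 172827 to 2341800 per library, which limits precision for genes with few counts. UUO and CL kidneys come partly from the same mice, and the tests are unpaired. In the ABTAA arm, the separated libraries of ABTAA-treated mice with the same number deviated together (correlations 0.159 to 0.386 over 3 pairs), so the numbers were taken as pairs, and a fit with the number as a block was run as an alternative. Other alternatives were no TMM factors, DESeq2 1.42.0, no filter, a mean count of at least 20, fits of only the compared groups, a single fit of all 12 groups, thinning to the shallowest library, the form of the library name as a covariate or alone, leaving out libraries with inconsistent labels or sex-linked counts, and leaving out each library. Scripts were tested on simulated data.

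The 48 genes and the lists of further genes and markers were chosen with earlier results of these data known. Values by group are given for the G1 cyclins tested, Hmgb2, Lmnb1, Stmn1, Mki67, Top2a, Cdk1, Pcna and Mcm2, the S phase and mitosis genes with the most counts and the genes with the lowest adjusted p in each comparison; the further genes named were those called or central to the pathway. Genes outside this rule, such as Aurka, Aurkb, Plk1, Kif23, Cdt1, Tk1, Gins2, Mcm3 and Mcm4, were named after their values were seen.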

Additional observations from a re-analysis of the deposited data

Results flagged for a closer look

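In each group of 4 to 10 libraries the highest and the lowest value of 18 measures were compared with the rest by Dixon's test, in 216 groups, of which chance flags about 1 in 20. The test found 16 values, each the highest of its group. The S phase sum was 732 CPM in IgG UUO replicate 8 (next 629), and the mitosis sum was 482 CPM in IgG CL replicate 8 (next 268), where macrophage markers summed to 233 CPM.

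In the Veptp arm the high values were Ccnd2 in Veptp iECKO CL replicate 2 (29.5 CPM) and in Veptp WT UUO replicate 4 (70.4), Mcm6 in Veptp WT UUO replicate 8 (76.9), Uhrf1 in Veptp WT CL replicate 3 (9.93) and in Veptp iECKO CL replicate 2 (16.9), and Mki67 and Stmn1 in Veptp WT UUO replicate 4 (108 and 126). Ccnb2 was high in Veptp WT CL replicate 1 (20.9), and Birc5 in Veptp iECKO CL replicate 2 (29.5) and Veptp iECKO UUO replicate 2 (47.0). In the other arms the values were Top2a in ABTAA UUO replicate 3 (90.6), Ccnb2 in ABTAA CL replicate 3 (19.9), Ccnd1 in Pdgfb WT CL replicate 4 (177) and Birc5 in Pdgfb iKO UUO replicate 4 (44.8).

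Differences between responses to UUO were called for 3 genes among 203 tests of members. Uhrf1 (-2.24) and Top2a (-1.27) responded less in Pdgfb iKO than in Pdgfb WT mice, 2 of 41 members where 8.56% of all genes were called, a share below the background. Birc5 responded more in separated than in plain libraries of the Veptp arm (2.20). Each of these calls was lost when particular single libraries were left out, as given above.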

How the results depend on the processing

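A mean count of at least 20 left 12 of 37 members tested in the ABTAA arm and thinning left 8, and the numbers called fell with it. With the stricter filter 10 members were called in IgG-treated (2347 of 5682 genes in all) and 10 in ABTAA-treated mice (1607 of 5682), 15 of 22 in Veptp WT (1607 of 8621), 12 of 22 in Veptp iECKO (658 of 8621), 20 of 21 in Pdgfb WT (3247 of 7836), 5 of 21 between Pdgfb iKO and WT UUO kidneys (1860 of 7836), 4 and 9 between name forms in the ABTAA and Veptp arms, and 0 for the difference of response between forms in the Veptp arm. After thinning these were 5, 5, 5, 1, 13, 4, 2, 3 and 0, with 1 for UUO in Pdgfb iKO mice and 0 for the difference of response in the Pdgfb arm. Thinning left 4379 genes in the ABTAA arm, of which 1550 and 993 were called for UUO, 5564 in the Veptp arm (803 and 243) and 7257 in the Pdgfb arm (2289 and 300, and 1117 between the UUO kidneys). edgeR's exact test and the compared groups alone, which test 21 to 24 members, each called 19 in IgG-treated and 22 in ABTAA-treated mice (by the exact test 2698 of 7325 and 2039 of 8667 genes), and the exact test called 13 of 42 between Pdgfb iKO and WT UUO kidneys (2359 of 11249 genes). Plain libraries alone called 16 in ABTAA-treated, 12 in Veptp WT and 0 in Veptp iECKO mice, where separated libraries called 35, the form covariate 37, the replicate block 35 and the fit without the numbers 3, 4, 7 and 8 called 5.

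In the ABTAA arm the replicate block changed no count by over 1.5 times. In the Veptp arm same-numbered libraries correlated at 0.0584 to 0.427 over 8 pairs (median 0.237). Pairs of libraries with different numbers correlated there at -0.418 to 0.366 (median -0.031, 56 pairs). The value of 0.427 belonged to number 3, which carries opposite genotypes in its CL and UUO kidneys. Whether same-numbered libraries of this arm come from the same mouse was not tested. Without TMM factors 18 members were lower in Pdgfb iKO than in WT UUO kidneys and 3 differed in response, while the median over all genes moved to -0.29 in both. Between these UUO kidneys 3157 of 10923 genes were then called in either direction, against 2034 with TMM factors. All 12 groups in 1 fit called 0 for these comparisons (322 and 10 of 12210 genes) and for UUO in Pdgfb iKO mice (125 of 12210). There no filter called 7 (871 of 25061 genes). DESeq2 called 1 for the difference of response in the Pdgfb arm (862 of 10923 genes). For the difference of response between forms in the Veptp arm it called 2 (89 of 11916), where no filter called 3 (196 of 24538). Stmn1 between forms in the Veptp arm reversed without TMM factors, to 0.11 (adjusted p = 0.364). The causes were not tested.

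With single libraries left out, called members ranged from 33 to 35 in IgG-treated, 32 to 36 in ABTAA-treated, 34 to 38 in Veptp WT, 16 to 25 in Veptp iECKO, 30 to 37 in Pdgfb WT and 0 to 6 in Pdgfb iKO mice. They ranged from 2 to 10 between Pdgfb iKO and WT UUO kidneys, 0 to 3 for the difference of response in the Pdgfb arm, 6 to 10 and 13 to 16 between forms, and 0 to 2 for the difference of response between forms in the Veptp arm. Shallow libraries limit what can be called for genes with few counts.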
